A study of Mus musculus with 4 samples.

Results

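The 10 genes described here are imprinted, which means that 1 parental copy is silenced in at least some tissues. They are Meg3, Rian, Mirg, Dlk1, Peg3, Grb10, Cdkn1c, Plagl1, Gnas and Nnat, chosen by symbol as imprinted genes known to be expressed in pancreatic islets, the hormone-secreting cell clusters of the pancreas. Each symbol matched 1 row among the 52636 gene rows of the count table. Islet RNA was sequenced from 2 control libraries of wild-type mice and 2 libraries of Tspan7 knockout mice (genotype Tspan7 y/-, so hemizygous for an X-linked gene that encodes a tetraspanin membrane protein). Strain, age, the design of the deleted allele and any pooling of animals are not stated in the labels. Nor do the labels tie the libraries to separate animals, so p-values here reflect only variation among 4 libraries, part of which may be technical. The series text speaks of a knockdown where the sample labels say knockout, and the groups follow the sample labels.

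Imprinted genes carry marks of DNA methylation set in the egg or sperm, and the marked copy is then kept silent or active through later cell divisions. Many of them control growth, and several are linked to islet disease, such as PLAGL1 to transient neonatal diabetes, CDKN1C to congenital hyperinsulinism and MEG3 to type 2 diabetes. Meg3, Rian and Mirg are noncoding RNAs read from the maternal copy of the Dlk1-Dio3 domain, whose paternal copy gives Dlk1 and Rtl1. Cdkn1c is expressed from the maternal copy, Peg3, Plagl1 and Nnat from the paternal copy, Grb10 from the maternal copy in most tissues, and Gnas gives transcripts from both, depending on promoter and tissue. The counts add up both parental copies, so they measure the level of each gene and not its imprint.

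Library totals ran from 7855665 to 9377220 counts, and the floor of 3 counts used for detection equals 0.312 to 0.398 CPM (counts scaled to a common library size). For Tspan7, 1924 and 1795 counts were seen in controls against 3 and 2 in knockouts, which matches the labels. All 16 islet endocrine markers were detected, with a summed level of 26861 to 32911 CPM per library. Acinar markers, which belong to the exocrine pancreas, summed to 2624 and 135 CPM in control replicates 1 and 2 and to 1217 and 5416 CPM in knockout replicates 1 and 2, so they split the replicates of each group, and 5 members (Meg3, Rian, Dlk1, Grb10 and Plagl1) were higher in the library with less acinar RNA in both groups, as were 29.8% of all tested genes. Over the same order of libraries, macrophage markers summed to 109, 91.6, 78.2 and 66.0 CPM, and stellate, pericyte and fibroblast markers to 221, 262, 171 and 219 CPM. Endothelial markers summed to 511, 530, 441 and 506 CPM, and ductal markers to 1569, 1570, 1387 and 1212 CPM. Both knockout libraries lay below both controls for 7 of 10 tested macrophage markers and 6 of 9 endothelial markers. The same held for 5 of 12 stellate, pericyte and fibroblast markers, with 2 above, and for 1 of 9 ductal markers. Over all tested genes the share was 15.0%. The part of these cells in the results was not tested, and in bulk RNA fewer cells of a type and less RNA per cell cannot be told apart.

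The promoters of Meg3 and Peg3 are shown because they hold the cAMP response element TGACGTCA. Of the 9 members in the RefSeq promoter table, these 2 had it in a window of 300 bases around the start. The element is a site of the transcription factor CREB, whose activity rises with cyclic AMP. The word reads the same on both strands. It was found in 2 of the 14 windows of the 9 members and in 1.79% of the 32851 windows in the table. It lies 57 bases before the start of Meg3 and 178 bases before that of Peg3. Each line gives the 250 bases before the start, 5′ to 3′ on the strand of the gene, from RefSeq on build GRCm38.p6, with the element in capitals. The stretches are chr12:109540746-109540995 on the plus strand for Meg3 and chr7:6730420-6730669 on the minus strand for Peg3.
Meg3: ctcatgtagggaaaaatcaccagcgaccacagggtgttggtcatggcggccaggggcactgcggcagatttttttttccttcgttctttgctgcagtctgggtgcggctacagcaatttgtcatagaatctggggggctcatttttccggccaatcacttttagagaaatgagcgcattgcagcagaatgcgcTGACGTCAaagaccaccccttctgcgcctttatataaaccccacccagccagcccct
Peg3: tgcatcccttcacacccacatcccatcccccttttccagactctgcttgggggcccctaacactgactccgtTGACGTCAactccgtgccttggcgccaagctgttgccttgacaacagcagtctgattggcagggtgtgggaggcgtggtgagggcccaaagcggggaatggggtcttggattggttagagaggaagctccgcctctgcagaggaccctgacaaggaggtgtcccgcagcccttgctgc
The core of the motif bound by Zfp57, the zinc finger protein that keeps imprints methylated, is TGCCGC. Searched on both strands, with no overlap with the other word, it was found in 11.6% of all windows. It was found in 4 of the 14 windows of members, from Meg3, Plagl1, Grb10 and Nnat. A match describes the letters in these windows and is not evidence of binding.

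Meg3, Rian and Mirg also carry small RNAs, and the sequences of microRNAs whose rows have the most counts are given to show what these transcripts host. Of 67 microRNA rows between Dlk1 and Dio3, 61 matched a RefSeq entry, with 113 mature sequences and 104 different seeds (bases 2 to 8, the part that pairs with a target RNA). Meg3 holds miR-1906 and miR-770, Rian holds miR-341, and Mirg holds miR-485, miR-410, miR-382 and miR-134, chosen for their counts. The seed is in capitals.
miR-1906: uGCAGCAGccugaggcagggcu
miR-770-5p: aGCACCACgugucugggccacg
miR-770-3p: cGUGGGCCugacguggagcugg
miR-341-3p: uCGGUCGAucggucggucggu
miR-485-3p: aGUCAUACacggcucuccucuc
miR-410-3p: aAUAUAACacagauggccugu
miR-382-5p: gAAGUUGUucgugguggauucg
miR-134-5p: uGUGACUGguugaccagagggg
None of these 8 seeds recurred in the domain, while 9 seeds were each shared by 2 mature sequences. The other arm of miR-410 shares its seed with miR-494-5p, and miR-453 shares its seed with miR-496a-5p.
miR-410-5p: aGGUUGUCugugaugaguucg
miR-494-5p: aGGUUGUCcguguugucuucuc
miR-453: aGGUUGCCucauagugagcuugca
miR-496a-5p: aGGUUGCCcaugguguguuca

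Per kilobase of annotated exon, Peg3 stood highest of the 10 genes in islets and Dlk1 lowest. Mean levels over the 4 libraries were 191 ± 22.3 RPKM for Peg3 (scaled counts per kilobase, SD, n = 4), 82.5 ± 5.24 for Gnas, 42.6 ± 2.75 for Rian and 29.8 ± 6.69 for Meg3. Peg3 ranked 144 and Gnas 396 by this measure among the 16924 genes that passed the filter on low counts. On this exon length, the ranges of Peg3, Gnas, Rian and Meg3 did not overlap, since the lowest value of each lay above the highest of the next (39.4 RPKM for Rian against 37.8 for Meg3). Grb10 (10.5 ± 1.59 RPKM), Nnat (10.3 ± 2.76), Mirg (7.40 ± 1.72) and Plagl1 (6.26 ± 1.55) followed, and the values of neighbours in this order overlapped. Cdkn1c at 0.732 ± 0.181 RPKM and Dlk1 at 0.261 ± 0.159 were far lower than the rest. Exon lengths came from GENCODE M21, and with the longest transcript in place of all exons the level was 234 RPKM for Gnas, 293 for Peg3, 96.1 for Rian, 18.9 for Grb10 and 14.1 for Mirg, which placed Mirg above Nnat (12.999). On that length Peg3 and Gnas overlapped, with Peg3 at 242 RPKM in control replicate 2 and Gnas at 255 RPKM in control replicate 1. Together the 10 genes took between 0.476% and 0.548% of the counts of a library.

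**Figure D1:**
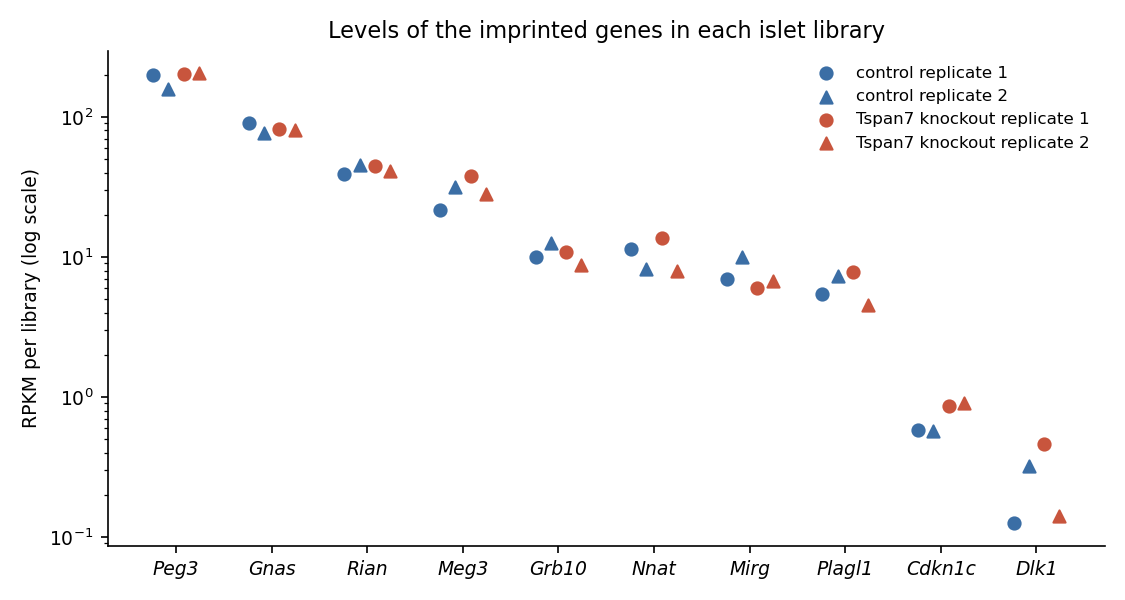
Level of each imprinted gene in each of the 4 islet libraries, in RPKM on a log scale, ordered by the mean. Blue points are control and red points Tspan7 knockout libraries, circles replicate 1 and triangles replicate 2. Peg3 lies between 158 and 205 RPKM and Dlk1 between 0.125 and 0.459 RPKM.

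None of the 10 genes was called different between knockout and control islets by the test used. With 2 libraries per group, the lack of a call does not show that a level was unchanged. All 10 passed the low-count filter, and 0 had an adjusted p under 0.05 in edgeR's quasi-likelihood test, where 0.00591% of all tested genes did (Tspan7 alone). Each member's adjusted p was 0.9997, and 0 had an unadjusted p under 0.05, against 3.51% of all tested genes (DESeq2 and limma-voom also called 0 members, and called 0.0355% and 0.00591% of all genes). Log2 fold changes of knockout against control were positive for 6 members and negative for 4, with a median of 0.08 beside 0.003 over all tested genes. Leaving out knockout replicate 1 moved that median to -0.17, and leaving out knockout replicate 2 moved it to 0.24. The groups did not overlap for 3 members (Peg3 and Cdkn1c with both knockout libraries higher, Mirg with both lower), and the same held for 30.3% of all tested genes (15.3% higher, 15.0% lower). The 95% confidence interval (CI) of the fold change lay within 2-fold in both directions for 8 members, the others being Dlk1 and Cdkn1c.

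**Figure D2:**
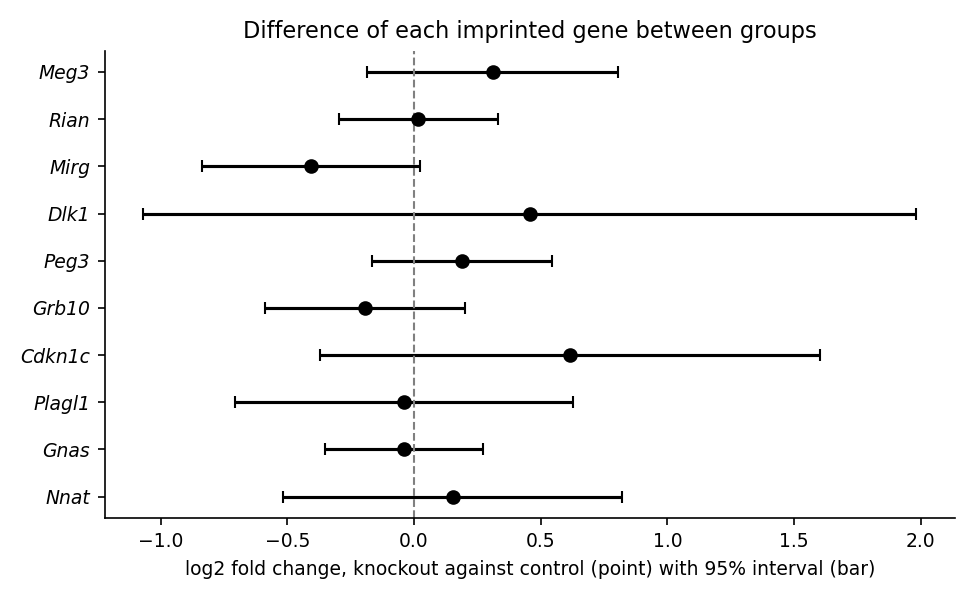
Log2 fold change of each imprinted gene, knockout against control islets, from edgeR's quasi-likelihood fit (point) with its 95% CI (bar). Every interval includes 0, and the bars of Dlk1 and Cdkn1c, the genes with the fewest counts, are the widest.

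Meg3, a long noncoding RNA that acts in the nucleus and can raise p53 activity, measured 394 and 568 CPM in control replicates 1 and 2 and 685 and 508 CPM in knockout replicates 1 and 2. Knockout replicate 1 was highest and control replicate 1 lowest, and the groups overlapped. The log2 fold change was 0.31 ± 0.21 (SE), with a 95% CI of -0.19 to 0.81, which became 0.07 without control replicate 1 and 0.60 when control replicate 2 was left out instead. The 2 control libraries differed far beyond counting error for this gene (chi-square 277 with 1 degree of freedom), as did the 2 knockout libraries (217). Such excess was not particular to Meg3, since the value for Peg3 was 580 in control and 2.41 in knockout libraries.

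Rian, the host transcript of a cluster of small nucleolar RNAs, was the steadiest of the noncoding members. It measured 719 and 827 CPM in control and 811 and 753 CPM in knockout libraries. Both knockout values lay between the control values. The log2 fold change was 0.02 ± 0.14 with a CI of -0.30 to 0.33, and it turned negative without control replicate 1 (-0.08) and without knockout replicate 1 (-0.03).

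Mirg, the host of the microRNA cluster at the far end of the domain, measured 50.6 and 72.3 CPM in control and 43.8 and 49.0 CPM in knockout libraries. Both knockout libraries lay below both controls, knockout replicate 2 by a small margin, and control replicate 2 stood apart. With a log2 fold change of -0.41 ± 0.19 and a CI of -0.84 to 0.03, Mirg had the smallest unadjusted p of the 10 genes (0.0620) and its adjusted p was 0.9997 in edgeR's test. It was -0.13 when control replicate 2 was left out and -0.64 when control replicate 1 was.

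Dlk1, a membrane protein with epidermal growth factor repeats that is related to the Notch ligands, was scarce in these islets. Only 6 and 17 control counts and 25 and 6 knockout counts were found, or 0.710, 1.81, 2.60 and 0.795 CPM. Control replicate 2 and knockout replicate 1 were high and the others low, a split within each group. The CI of the log2 fold change (0.46 ± 0.66) ran from -1.07 to 1.98, and the direction turned without knockout replicate 1 (-0.67) and without control replicate 1 (-0.04), so the data do not fix a direction for Dlk1.

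Meg3, Rian and Mirg lie one after another on the same strand, and the ratio of their counts within a library does not depend on how libraries are scaled. Meg3 counts were 7.79 and 7.86 times those of Mirg in control replicates 1 and 2, and 15.6 and 10.4 times those of Mirg in knockout replicates 1 and 2. The control libraries were close to each other, the knockout libraries were further apart, and the groups did not overlap. The mean ratio was 7.82 ± 0.0542 in control and 12.99 ± 3.72 in knockout islets (SD, n = 2 each), a difference of 0.70 on the log2 scale. An exact two-sided permutation test gave p = 0.333, the smallest that 2 libraries against 2 can give. Rian per Mirg was 14.2 and 11.4 in control and 18.5 and 15.4 in knockout libraries, without overlap. The same permutation test gave p = 0.333 for it. Rian per Mirg and Meg3 per Mirg share the Mirg count, so they are not separate pieces of evidence. Meg3 per Rian (0.548 and 0.687 against 0.845 and 0.675) overlapped. These ratios were examined after the values of the 3 genes had been seen.

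**Figure D3:**
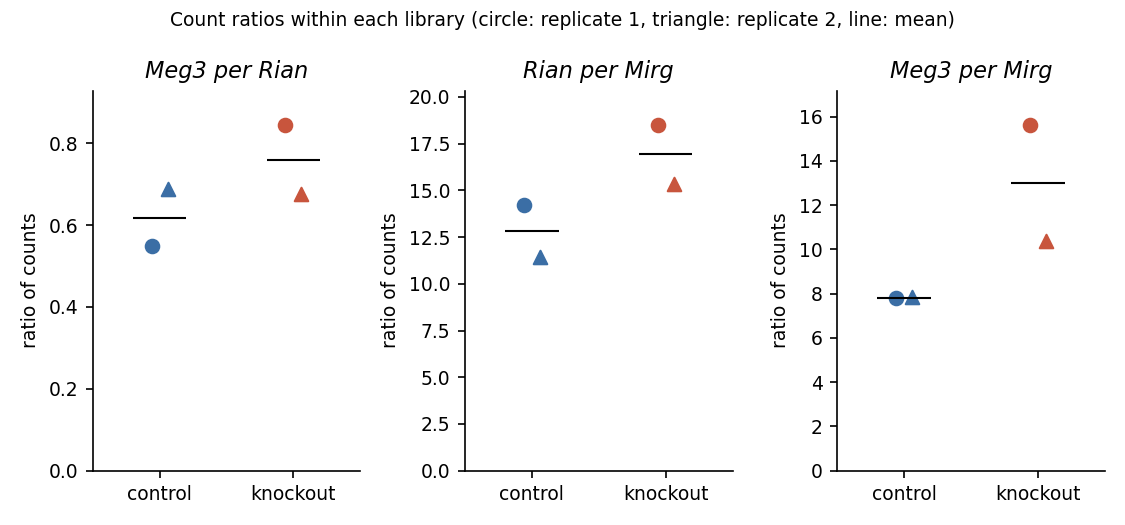
Ratio of the counts of Meg3, Rian and Mirg within each library, for control and knockout islets, with circles for replicate 1, triangles for replicate 2 and lines for group means. Meg3 per Mirg is near 7.82 in both control libraries and is 10.4 and 15.6 in the knockout libraries.

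The tested rows of the domain, with Dlk1, Meg3, Rian and Mirg among them, were described in 5 segments, chosen after values were seen. Of 118 annotated rows between Dlk1 and Dio3, 43 passed the low-count filter and 0 were called by edgeR. From Dlk1 to the start of Rian, 10 tested rows had a median log2 fold change of 0.30, with 6 positive. The 16 tested rows within Rian had a median of -0.15 and 7 positive values, the 6 between Rian and Mirg a median of -0.29 and 0 positive, and the 10 within Mirg a median of -0.29 and 1 positive. Segment medians depended on the library left out. Without control replicate 2 they were 0.60, -0.01, 0.19 and -0.13 in the same order, and without knockout replicate 1 they were -0.21, -0.46, -0.39 and -0.30. Rows that overlap the same host can share reads, so they are not separate pieces of evidence, and values within Rian ranged from -0.72 to 0.48. Gm3379, a pseudogene and the single tested row beyond Mirg, had a log2 fold change of -1.01 ± 0.51 from 11 and 21 control counts and 8 and 7 knockout counts.

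**Figure D4:**
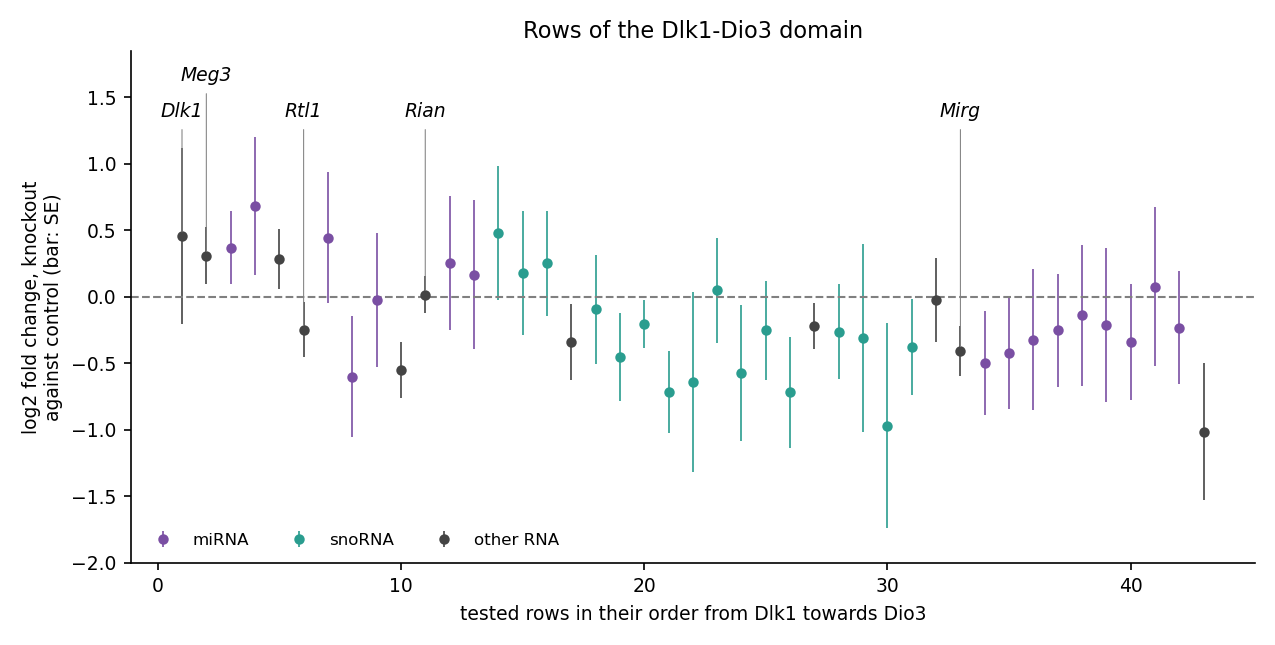
Log2 fold change, knockout against control islets, of the 43 tested rows of the Dlk1-Dio3 domain, in their order from Dlk1 towards Dio3, with bars of 1 SE and colours for the kind of RNA. Meg3 lies at 0.31 and Mirg at -0.41, with 0 of the 6 rows between Rian and Mirg and 1 of the 10 within Mirg above 0. These segments were chosen after values were seen, and rows that overlap the same host can share reads. Without control replicate 2 the median between Rian and Mirg was 0.19.

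Rows of small RNAs were also summed by host. The microRNA rows within Meg3 summed to 7.81 and 14.1 CPM in control and 16.3 and 13.4 CPM in knockout libraries, those within Mirg to 15.7 and 24.5 against 15.4 and 18.4 CPM, and the 13 small nucleolar RNA rows within Rian to 48.0 and 61.7 against 51.0 and 44.3 CPM. For Meg3 the order of the libraries was that of the host. Mir1906-1 gave 56 and 106 control counts and 115 and 85 knockout counts, and Mir770 gave 10 and 27 against 42 and 16. Libraries of total RNA of this kind do not separate the mature microRNA from its precursor or from the host transcript. Rtl1, a coding gene derived from a retrotransposon and read from the paternal copy on the opposite strand, measured 23.5 and 30.1 CPM in control and 25.9 and 19.2 CPM in knockout libraries. Gm26906, annotated on the strand opposite the end of Meg3, held between 5.57% and 5.87% of the Meg3 count in each library. Gm37899, between Rian and Mirg, measured 89.9 and 124 against 93.2 and 90.8 CPM, or -0.22 ± 0.17 on the log2 scale (0.03 if control replicate 2 is left out). Of 6 gene pairs in the whole table that lie on opposite strands with ends within 2 bases and have counts, 5 had the same 4 counts, Mir409 and Gm24321 of this domain among them. Reads from stretches annotated on both strands of this domain, such as any shared by Meg3 and Gm26906, can therefore not be told apart.

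Peg3 encodes a large zinc finger protein and was the most abundant coding member. It measured 2657 and 2102 CPM in control and 2693 and 2732 CPM in knockout libraries. Control replicate 2 was low, the other control library was close to the knockout libraries, and the groups did not overlap. The log2 fold change of 0.19 ± 0.16 (CI -0.17 to 0.55) was 0.03 without control replicate 2 and 0.37 without control replicate 1. Its neighbours Zim1, a maternally expressed zinc finger gene, and Usp29, a paternally expressed gene that shares the Peg3 promoter region, had 2.44% and 2.73% (Zim1) and 3.21% and 2.76% (Usp29) of the Peg3 count in control libraries. In knockout libraries the shares were 3.12% and 2.62% for Zim1, which overlapped, and 3.42% and 3.68% for Usp29, which did not. For Usp29 the exact two-sided permutation test gave p = 0.333, the smallest that 2 libraries against 2 can give.

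Plagl1, a zinc finger transcription factor that restrains growth, measured 42.2 and 57.1 CPM in control and 61.0 and 35.4 CPM in knockout libraries. The highest and the lowest value were both knockout libraries. Its log2 fold change was -0.04 ± 0.28 (CI -0.71 to 0.63), and the direction turned without control replicate 2 (0.19) and without knockout replicate 2 (0.29). As with Meg3, the higher library of each group was the one with less acinar RNA (135 against 2624 CPM in control, 1217 against 5416 CPM in knockout), whose part in these values was not tested.

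Grb10, an adaptor that binds the insulin and IGF1 receptors and dampens their signal, measured 90.2 and 114 CPM in control and 98.7 and 79.4 CPM in knockout libraries. The groups overlapped, with control replicate 2 highest and knockout replicate 2 lowest. The log2 fold change was -0.19 ± 0.17 (CI -0.59 to 0.20), and -0.02 without control replicate 2.

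Cdkn1c encodes p57, an inhibitor of cyclin-dependent kinases that holds beta cells out of the cell cycle. It gave 10 and 11 control counts and 17 and 14 knockout counts, or 1.18, 1.17, 1.77 and 1.86 CPM. Both knockout libraries lay above both controls, and replicates of a group differed by less than counting error. The pooled knockout level was 1.54 times the control level, with an exact 95% counting interval of 0.855 to 2.81 that includes no difference and covers counting error only. The fitted log2 fold change was 0.61 ± 0.43 (CI -0.37 to 1.60).

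Gnas encodes the stimulatory G protein subunit that couples incretin and glucagon receptors to cyclic AMP, and 2 alternative products, NESP55 and XLαs, from imprinted promoters. Its row measured 1005 and 865 CPM in control and 911 and 909 CPM in knockout libraries. Both knockout values lay between the control values. The log2 fold change was -0.04 ± 0.14 (CI -0.35 to 0.27), 0.07 without control replicate 1, and a row per gene does not separate the products. Nespas, the antisense transcript of the locus, had 1.83% and 1.44% of the Gnas count in control and 1.99% and 1.56% in knockout libraries, which overlapped. It is annotated on the strand opposite Gnas and overlaps it, so reads from any exon stretch the 2 genes share cannot be told apart.

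Nnat encodes neuronatin, a small membrane protein of the endoplasmic reticulum that helps the signal peptidase trim preproinsulin in beta cells. It measured 20.8 and 15.0 CPM in control and 25.0 and 14.4 CPM in knockout libraries, with the second replicate lower in both groups. Its log2 fold change was 0.15 ± 0.29 (CI -0.52 to 0.82) and turned negative without control replicate 2 (-0.07) and without knockout replicate 1 (-0.30). Nnat lies in an intron of Blcap, and its count was 62.2% and 46.2% of that of Blcap in control and 73.7% and 52.7% in knockout libraries. Both genes lie on opposite strands, and the same limit holds for reads from any exon stretch they share, which was not examined.

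The members also differed in how far the 4 libraries spread. The ratio of the highest to the lowest library ran from 1.15 for Rian and 1.16 for Gnas to 1.74 for Meg3 and 3.66 for Dlk1. Knockout replicate 1 was the highest library for 4 members and control replicate 2 for 3. By the root mean square difference of centred log2 CPM over the 4 libraries, the genes nearest to Meg3 among 15017 were Zfp524, Spata24 and Flt3l (0.0300, 0.0301 and 0.0303), after 1 gene with a predicted name. These 3 had only 17 (Flt3l) to 51 (Zfp524) counts per library, so counting error alone could change their places. Rian ranked 1582, Plagl1 2160, Grb10 3632, Peg3 8637, Gnas 8639, Nnat 10606 and Mirg 11419, while Dlk1 and Cdkn1c were below the minimum level for ranking.

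Other imprinted genes did not pass the test either. Of 63 listed genes 62 matched a row and 45 were tested, of which 0 were called by edgeR over all genes and 2 higher and 1 lower had an unadjusted p under 0.05 (3.51% of all tested genes had one). Log2 fold changes were positive for 26 and negative for 19 with a median of 0.06, and the groups did not overlap for 28.9% against 30.3% of all tested genes. Igf2r, the receptor that clears insulin-like growth factor 2, measured 220 and 271 CPM in control and 192 and 185 CPM in knockout libraries (log2 fold change -0.38 ± 0.15, adjusted p = 0.9997 in edgeR's test). Zrsr1, a paternally expressed splicing factor gene, measured 71.8 and 41.9 against 87.0 and 88.4 CPM (0.63 ± 0.24), and Commd1, the gene whose intron holds Zrsr1, measured 43.4 and 31.9 against 47.8 and 50.9 CPM (0.39 ± 0.18). Commd1 and Zrsr1 overlap on opposite strands, so reads from any exon stretch they share cannot be told apart either. How much exon they share was not examined. Zrsr1 passed in edgeR with no low-count filter (adjusted p = 0.0490), a setting that called 15 genes higher and 47 lower. With the replicate block it did not pass in edgeR (adjusted p = 0.784). The log2 fold change of Zrsr1 was 1.06 without control replicate 1 and 0.29 without control replicate 2. Zim1 stood at 65.0 and 57.4 against 83.9 and 71.6 CPM (0.35 ± 0.15). The listed genes with the most counts were Ins2, whose imprint is known from the yolk sac, the amino acid transporter gene Slc38a4, the ubiquitin ligase gene Ube3a, Ago2, the decarboxylase gene Ddc and Zdbf2, with log2 fold changes from -0.05 (Ube3a) to 0.12 (Ddc).

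Of 27 genes that set or keep imprints, 24 were tested and 0 were called, with a median log2 fold change of 0.02. Uhrf1, which brings the maintenance methyltransferase to replicating DNA, gave 12 and 15 control counts and 3 and 0 knockout counts, a pooled ratio of 0.116 with an exact 95% counting interval of 0.0224 to 0.376 that covers counting error only. Its log2 fold change of -3.02 ± 1.01 rests on these few counts and was -2.23 without knockout replicate 2, while without knockout replicate 1 the knockout arm holds 0 counts. Hells, a chromatin remodeler needed for DNA methylation, measured 3.67 and 3.40 against 0.935 and 1.99 CPM (log2 fold change -1.305 ± 0.44), and the maintenance methyltransferase gene Dnmt1 37.7 and 46.5 against 33.8 and 30.9 CPM (-0.38 ± 0.16). Tet1, whose product oxidises methylated cytosine, stood at 31.9 and 32.3 against 40.9 and 39.9 CPM (0.33 ± 0.14). These 4 had the smallest p of the list, and the adjusted p from edgeR was 0.9997 for all 4. The list had 1 gene higher and 3 lower with an unadjusted p under 0.05, where 3.51% of all tested genes had one, and its groups did not overlap for 20.8% against 30.3% of all tested genes.

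Among 38 genes whose products act with those of the members, 36 were tested and 0 were called, with a median log2 fold change of -0.04 and groups that did not overlap for 33.3%, against 30.3% of all tested genes. An unadjusted p under 0.05 was found for 1 higher and 1 lower gene of the list, against 3.51% of all tested genes. Igf1r, the growth factor receptor bound by Grb10, measured 262 and 312 CPM in control and 218 and 221 CPM in knockout libraries (log2 fold change -0.39 ± 0.14), while Irs1, the docking protein of insulin signalling, measured 38.6 and 43.0 against 54.0 and 48.4 CPM (0.33 ± 0.15). Plagl2, a relative of Plagl1, stood at 32.1 and 26.9 against 35.3 and 41.6 CPM (0.38 ± 0.17), and Notch2 at 11.2 and 11.9 against 9.04 and 7.16 CPM (-0.51 ± 0.23). The adjusted p from edgeR was 0.9997 for each.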

How the data were processed

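RNA was measured in 4 islet libraries, 2 control and 2 Tspan7 knockout, grouped by their titles. The deposited values are raw counts per Ensembl gene. HISAT2, featureCounts and build GRCm39 are named in the submitters' processing notes, with no versions. Which annotation release and strand setting were used, and how multi-mapping reads were counted, is not given in sources used here. Names, neighbours and exon lengths came from GENCODE M21 (build GRCm38), which matched 52489 of 52636 identifiers, and sequences from RefSeq on GRCm38.p6.

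Genes were kept by filterByExpr (minimum count 10), scaled by TMM and compared in edgeR 4.0.16 (R 4.3.3) by its two-sided quasi-likelihood F test (robust option, group as the only term), with Benjamini-Hochberg adjustment over 16924 genes at 0.05. The script was tested on simulated counts. Alternatives were DESeq2 1.42.0, limma-voom (limma 3.58.1), other scalings, no filter, a replicate block and each library left out. Members and gene lists were chosen with earlier results of these data known. Text names all members, Tspan7, up to 4 genes per list with the smallest p, the 6 other imprinted genes and the 5 domain rows with the most counts, and the 3 genes nearest to Meg3. The ratios, domain segments, microRNAs and remaining genes named were chosen after values were seen. Same-numbered libraries did not deviate together (correlation -0.31 over 15018 genes, with mean log2 CPM of at least 1). Counting intervals and floors cover counting error only.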

Additional observations from a re-analysis of the deposited data

How the results depend on the processing

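No member was called by edgeR, DESeq2 or limma-voom in any of the 11 alternatives, where the smallest adjusted p of a member was 0.273. Over all genes edgeR called 0 higher and 1 lower. The counts were 15 higher and 47 lower with no low-count filter, 1 and 5 with the replicate block, and 1 higher with the crossed replicate block, chosen after seeing the data because same-numbered libraries deviated in opposite ways. DESeq2 called 6 lower. With each library left out in turn, 0 to 33 were higher and 1 to 15 lower, both upper values without control replicate 1. Leaving out libraries turned the direction of 5 members, with log2 fold changes from -0.0822 to 0.12 for Rian, -0.67 to 1.29 for Dlk1, -0.49 to 0.29 for Plagl1, -0.14 to 0.0706 for Gnas and -0.30 to 0.48 for Nnat. It also turned Ins2 (-0.18 to 0.24), Slc38a4 (-0.15 to 0.11), Ube3a (-0.14 to 0.0275), Ago2 (-0.27 to 0.21), Ddc (-0.20 to 0.53), Zdbf2 (-0.19 to 0.27) and Gm37899 (-0.43 to 0.032). The other 5 members kept their direction in all 11 alternatives, and no other scaling, tool, filter or block turned one. The cause was not tested. Dlk1 and Cdkn1c had the fewest counts, 6 to 25 and 10 to 17 per library. Replicates differed beyond counting error for Dlk1 (chi-square 4.16 in control and 7.60 in knockout, 1 degree of freedom) and not for Cdkn1c.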
